A study of Mus musculus with 15 samples.

Results

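The ATP-binding cassette (ABC) transporter superfamily was followed here in the liver and heart of mice that carry a homozygous mutation of one of its own members, Abcb5, and of wild-type mice. Members were the probes of an Illumina bead array whose gene symbol in the platform annotation consists of Abc, a subfamily letter from a to g and a number. The rule found 80 probes of 46 genes among 25697 probes of 16593 named genes, and it used no measured value. The 4 groups were 3 ABCB5 mutant livers, 4 wild-type livers, 4 ABCB5 mutant hearts and 4 wild-type hearts, 15 arrays in all. They came from 8 mice: 7 are represented by liver and heart, and the remaining mutant by its heart alone. All mice were male, 17 weeks old and of the strain C57BL/6J-Tyr, so both genotypes share that strain background. The nature of the mutation, how many founder lines it came from and whether the wild-type mice were littermates were not given in the sources used here. Each array of a tissue was a separate mouse, so p-values measure the spread between mice.

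ABC transporters use the energy of ATP hydrolysis to move lipids, bile acids, pigments, drugs and metal complexes across membranes. Full transporters carry a pair of membrane domains and a pair of ATP-binding cassettes in a single chain, while smaller members assemble as dimers, and the members of subfamilies E and F have cassettes but no membrane domain. In the liver, ABC exporters of the canalicular membrane drive the secretion of bile, and in the heart a subfamily C member forms the regulatory subunit of ATP-sensitive potassium channels. Abcb5 belongs to the P-glycoprotein branch of subfamily B, beside Abcb1a, Abcb1b, Abcb4 and Abcb11. The question addressed was whether any other member had a different level in mutant mice.

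No probe was named Abcb5, so its level could not serve as a check of the genotypes. The members comprised 32 probes of 16 genes in subfamily A, 13 of 8 in B, 15 of 9 in C, 5 of 3 in D, 1 of 1 in E, 8 of 3 in F and 6 of 6 in G. Values below are log2 intensities after subtraction of each array's background and addition of an offset of 16, so 4 is the lowest possible value and fold changes of dim probes are understated. The authors' tables had been scaled separately for the tissues: array medians were 113.10 to 113.11 in liver and 8.04 to 8.08 in heart. Levels are therefore given side by side without a test between tissues, and levels of different probes are not set against each other. The tissue labels fitted their markers, with Apoa1 of hepatocytes at intensities of 13450.5 to 16186.7 in livers and -2.45 to 4.43 in hearts, and Myl2 of heart muscle at 107.8 to 124.4 in livers and 22133.9 to 47565.2 in hearts. In bulk tissue, fewer cells of a type and less RNA per cell cannot be told apart.

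The comparisons were limited to probes above background on at least 3 arrays of the tissue. That left 46 member probes of 31 genes in liver, 36 of them above background on all 7 arrays, and 59 probes of 36 genes in heart, 45 of them on all 8 arrays. In liver 15 member probes, and in heart 8, were above background on no array. Both tissues shared 42 tested probes of 29 genes, and 8 genes had no testable probe in either: Abca1, Abca13, Abca14, Abcb1a, Abcc1, Abcc12, Abcg2 and Abcg3. This set includes Abca1, the cholesterol exporter that loads apolipoprotein A-I, and Abcb1a and Abcg2, multidrug exporters, so a response of those genes was not measurable with these probes. Their group means lay at 4.08 to 4.34, close to the lowest possible value. By the same background rule, 46.5% to 46.6% of all probes passed on a liver array and 67.3% to 67.5% on a heart array.

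**Figure D1:**
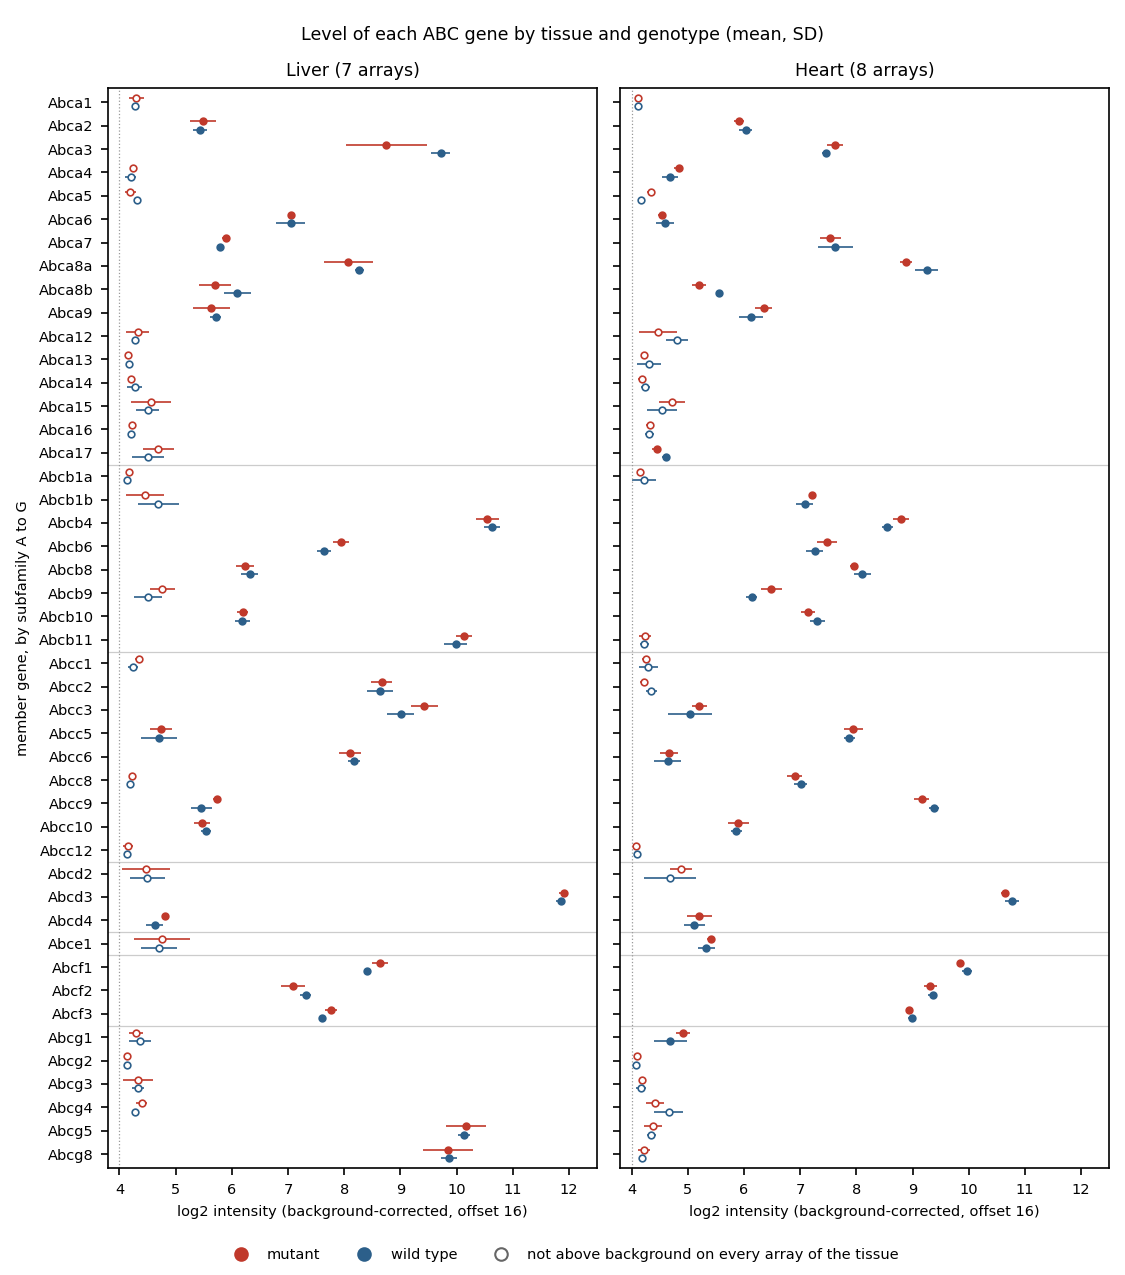
Mean log2 intensity of the member genes in each tissue and genotype (1 probe per gene, rows by subfamily, points for means and lines for SD, open where not every array of the tissue was above background). The bile exporters Abcb4, Abcb11, Abcg5 and Abcg8 sit near 10 in liver, while Abcb11 and Abcg8 lie close to 4 in heart, and the mutant and wild-type marks of most genes nearly coincide.

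The 5 genes listed here as exporters of the bile canaliculus, Abcb4, Abcb11, Abcc2, Abcg5 and Abcg8, were all measured in liver. All 6 probes of these genes were above background on all 7 liver arrays, and 1 of the genes was on all 8 heart arrays. The multidrug exporters Abcb1a and Abcg2, which had no testable probe, were not on this list. Abcb11, the bile salt export pump, read 10.16, 10.26 and 9.97 in mutant livers and 9.73, 9.94, 10.03 and 10.21 in wild-type livers, and it was too dim to test in heart. The groups overlapped, and the change was 0.15 ± 0.14 (log2, SE, n = 3 mutant and 4 wild-type mice, limma adjusted p = 0.760), with a 95% interval of 0.891- to 1.38-fold. Abcb4, the phosphatidylcholine floppase of bile, read 10.65, 10.30 and 10.68 in mutant livers and 10.46, 10.75, 10.74 and 10.55 in wild-type livers. Its groups also overlapped, with a change of -0.08 ± 0.14 (limma adjusted p = 0.876, interval 0.764- to 1.17-fold). Abcc2, which exports conjugated bilirubin, had 2 liver probes with changes of 0.03 ± 0.15 for the brighter (8.84, 8.69 and 8.46 in mutant livers, 8.33, 8.57, 8.80 and 8.82 in wild-type livers) and -0.11 ± 0.25 for the dimmer. The dimmer Abcc2 probe was the only member probe above background on all liver arrays and on no heart array.

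Abcg5 and Abcg8 encode the partners of the sterol exporter that secretes cholesterol into bile. In the order of protein-coding genes in the RefSeq table of assembly GRCm38.p6 they are neighbours and lie head to head. The sequence between their starts is shown because a single short stretch borders both genes (assembly GRCm38.p6, chr17:84683012-84683120, plus strand, 109 bases, 45.9% G and C; the table lists 2 starts for Abcg8). Capitals mark the only match to the motifs searched.
Abcg5-Abcg8: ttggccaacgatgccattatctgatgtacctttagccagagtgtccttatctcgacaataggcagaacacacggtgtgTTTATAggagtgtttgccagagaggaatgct
On both strands of this window and of those of Abca3, Abca8a and Abca8b, 6 motifs were searched: the TATA box TATAAA, the CAAT box CCAAT, the Sp factor site GGGCGG, the E-box site CACGTG, the site TTATGTAA for PAR bZIP factors and the nuclear receptor site AGGTCA. The match here is TTTATA, the reverse complement of TATAAA, which was present in 5.9% of 32851 windows of the same length upstream of listed starts. Abcg5 read 10.47, 9.77 and 10.25 in mutant livers and 9.97, 10.20, 10.13 and 10.22 in wild-type livers. Abcg8 read 10.32, 9.45 and 9.77 in mutant livers and 9.66, 9.87, 9.997 and 9.94 in wild-type livers. Both partners were highest in mutant liver 1 and lowest in mutant liver 2, so the mutant values enclosed all wild-type values. The changes were 0.03 ± 0.17 for Abcg5 (interval 0.795- to 1.31-fold, limma adjusted p = 0.968) and -0.02 ± 0.19 for Abcg8 (0.741- to 1.31-fold, adjusted p = 0.983).

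Abcb1b, a multidrug exporter of the P-glycoprotein branch, was dim in liver, at 4.29, 4.85 and 4.24 in mutants and 4.83, 4.26, 5.11 and 4.55 in wild types, with overlapping groups and a change of -0.23 ± 0.21 (limma adjusted p = 0.742). It was above background in 1 mutant and 3 wild-type livers, so it entered the test only through the genotype in which it was higher. In heart it read 7.28, 7.16, 7.21 and 7.21 in mutants and 7.17, 7.24, 6.999 and 6.90 in wild types, a change of 0.13 ± 0.10 (n = 4 each, limma adjusted p = 0.570) with an interval of 0.943- to 1.28-fold. Abcb4 was also above background in heart, with 8.58, 8.86, 8.82 and 8.90 in mutants and 8.66, 8.43, 8.54 and 8.59 in wild types. Of the mutant hearts 3 lay above all wild types and 1 among them, and the change of 0.23 ± 0.10 did not pass (limma adjusted p = 0.295). Abcb1a, Abcb1b and Abcb4 are neighbours in the RefSeq order. The 8 endothelial marker genes, a cell type known to carry P-glycoprotein, were all tested in heart. Their mean level was 8.06 to 8.20 in mutant hearts and 7.85 to 7.93 in wild-type hearts, with 0 of 8 past the limma test and all 8 differences positive. Whether this bears on the heart values of Abcb1b or Abcb4 was not tested.

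Across liver, 0 of 46 member probes passed a limma adjusted p of 0.05, where 12 of 12110 probes in all did (0.0991%). At an unadjusted p under 0.05, 6 members (13.0%) passed, 2 of them higher in mutants, beside 5.28% of all probes, and 4 lower, beside 6.01%. Of the 4 lower, 1 probe each of Abca3 and Abca6 entered the test only through the wild-type livers. Mutant and wild-type livers did not overlap for 6 members, 5 of them higher in mutants, beside 5.37% of all probes, and 1 lower, beside 5.71%. Both 13.0% shares lay near the sum of these background shares over the directions. The median change of the members was 0.02, beside -0.00335 for all probes, and 25 members had positive and 21 negative changes.

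The smallest p in liver belonged to Abca3, which moves phospholipid into lamellar bodies of the lung. Its brighter probe read 9.58, 8.28 and 8.38 in mutant livers and 9.59, 9.61, 9.70 and 9.95 in wild-type livers. Mutant livers 2 and 3 stood more than 1 log2 unit below every wild type, while mutant liver 1 lay just under the lowest of them. The change was -0.97 ± 0.26, a 1.96-fold lower level with an interval of 0.342 to 0.762 times wild type (limma adjusted p = 0.214). A dimmer probe of the gene read 5.14, 4.45 and 4.27 in mutant livers and 5.48, 4.76, 5.44 and 5.21 in wild-type livers, a change of -0.60 ± 0.23 (adjusted p = 0.345). It was above background in 2 mutant and 4 wild-type livers, so it entered the test only through the genotype in which it was higher. The call turned on mutant liver 1 and on the fit: without that liver the brighter probe gave -1.38 with a limma adjusted p of 0.00503, and with all livers it passed in a fit of all 15 arrays (-0.97, adjusted p = 0.0372). Over all alternatives its adjusted p ran from 0.00503 to 0.465. The upstream sequence of Abca3 is shown as that of the member with the largest liver difference (GRCm38.p6, chr17:24351773-24352022, plus strand, 250 bases, 67.6% G and C). Capitals mark its only match, GGGCGG, present in 32.7% of 32851 windows of this length.
Abca3: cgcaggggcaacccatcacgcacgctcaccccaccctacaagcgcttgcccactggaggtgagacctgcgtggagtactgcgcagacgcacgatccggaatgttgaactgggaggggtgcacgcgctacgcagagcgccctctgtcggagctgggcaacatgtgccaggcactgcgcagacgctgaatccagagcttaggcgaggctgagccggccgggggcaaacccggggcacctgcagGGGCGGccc
The neighbour of Abca3 in the RefSeq order, Abca17, was dim, with a liver change of 0.18 ± 0.18. Abca17 was above background in 3 mutant and 2 wild-type livers, so it entered the test only through the genotype in which it was higher.

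The member with the largest positive liver difference was Abcc3, which exports conjugates from the hepatocyte back into blood. It read 9.68, 9.19 and 9.41 in mutant livers and 8.77, 8.93, 9.34 and 8.97 in wild-type livers. The groups overlapped by a single mouse of each genotype, and the change was 0.42 ± 0.16 (limma adjusted p = 0.359), the highest upper bound among liver members at 1.72-fold. Abcb6, a porphyrin transporter of mitochondria and other membranes, read 8.05, 7.79 and 8.01 in mutant livers and 7.62, 7.48, 7.69 and 7.76 in wild-type livers. Every mutant lay above every wild type, with a change of 0.31 ± 0.13 (adjusted p = 0.388). Beside it, Alas1, which catalyses the first step of heme synthesis and is no member of the family, rose by 2.41 ± 0.24 in the same livers (11.8 ± 0.14 in mutants and 9.37 ± 0.54 in wild types, SD, limma adjusted p = 0.00350). Of 7 tested genes of mitochondrial heme and iron-sulfur handling outside the family, 1 passed as higher in liver and 0 as lower. The changes of these genes were positive for 5 and negative for 2, among them Fech (-0.23 ± 0.15). The other mitochondrial members gave liver changes of 0.01 (Abcb10) and -0.16 to 0.09 (3 probes of Abcb8). Red cell markers averaged 6.89 to 7.13 in mutant livers and 6.55 to 6.88 in wild-type livers, with 0 of 4 tested past the test and Ermap and Hbb-b2 not tested. Whether they bear on Abcb6 was not tested.

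The remaining liver members named by smallest p were small differences. The higher ones were Abcc9 (0.28 ± 0.13), Abcf1 (0.23 ± 0.12), Abcb9 (0.25 ± 0.16), Abcd4 (0.19 ± 0.13) and Abcf3 (0.15 ± 0.12). Other tested probes gave 0.07 and 0.04 for Abcf1, 0.18 for Abcb9 and -0.004 for Abcd4. Abcf1 and Abcf3 belong to the soluble members, and Abcf1 is known from translation initiation. Abcf1 read 8.52, 8.60 and 8.79 in mutant livers and 8.37, 8.41, 8.35 and 8.46 in wild-type livers, without overlap (adjusted p = 0.498). The lower ones were Abca6 (-0.48 ± 0.19 on 1 probe, with 0.17 and 0.00 on the others), Abca8b (-0.40 ± 0.17, adjusted p = 0.410), Abcf2 (-0.22 ± 0.13), Abca8a (-0.20 ± 0.18) and Abca9 (-0.13 ± 0.18). Other tested probes gave 0.08, -0.15 and -0.11 for Abcf2, -0.15 for Abca8b and -0.07 for Abca9. The 4 liver members lower at an unadjusted p under 0.05 were both probes of Abca3 and 1 probe each of Abca6 and Abca8b, beside 6.01% of all probes in that direction. The Abca6 probe was above background in 1 mutant and 4 wild-type livers. Like the dimmer Abca3 probe, it entered the test only through the genotype in which it was higher. In subfamily A, to which these members belong, 6 of 14 tested probes had positive and 8 negative changes. Of 10 genes with several tested liver probes, 5 had probes of opposite sign. Peroxisomal Abcd3, an importer of fatty acids, was bright at 11.9 ± 0.07 in mutant livers and 11.9 ± 0.08 in wild-type livers, and its change was 0.05 ± 0.12.

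**Figure D2:**
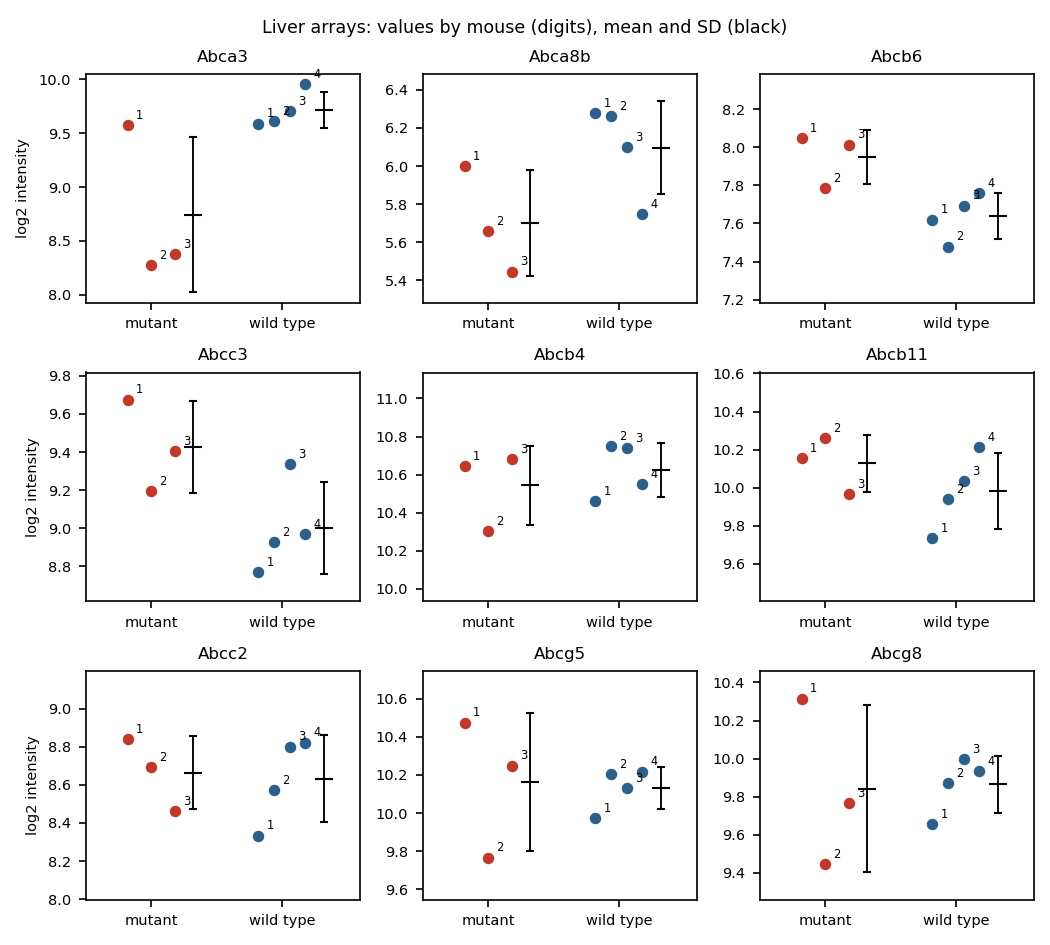
Log2 intensity of 9 liver probes in each mouse (digits number the mice), mutant left of wild type, with the group mean and SD in black. Abca3 shows mutant livers 2 and 3 more than 1 unit under the wild types and mutant liver 1 beside them, Abcb6 separates the genotypes, and Abcb11, Abcb4, Abcg5 and Abcg8 overlap.

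In heart, 0 of 59 member probes passed a limma adjusted p of 0.05, where 367 of 18518 probes in all did (1.98%). At an unadjusted p under 0.05, 7 members (11.9%) passed, 4 of them higher in mutants, beside 8.39% of all probes, and 3 lower, beside 7.34%. Genotypes did not overlap for 6 members (10.2%), 3 of them higher in mutants, beside 5.46% of all probes, and 3 lower, beside 4.57%. Of the 3 higher, Abca5 entered the test only through the mutant hearts. Positive changes numbered 26 and negative ones 33, with a median of -0.03 beside 0.00518 for all probes. The smallest adjusted p among the members was 0.0766.

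That value belonged to Abcb9, the lysosomal peptide transporter, a relative of the antigen peptide transporters. Its probe with the smallest p read 6.27, 6.16, 6.38 and 6.38 in mutant hearts and 5.98, 6.05, 5.79 and 5.78 in wild-type hearts. Another of its probes read 6.63, 6.25, 6.43 and 6.65 in mutant hearts and 6.17, 6.22, 6.15 and 6.01 in wild-type hearts. In both probes every mutant heart lay above every wild-type heart, and the gene's remaining probe was too dim to test. The changes were 0.40 ± 0.10 (1.32-fold, interval 1.13 to 1.54, limma adjusted p = 0.0766) and 0.35 ± 0.11 (adjusted p = 0.135). With an offset of 50 in place of 16 the smaller-p probe passed (0.26, adjusted p = 0.0470), and over all alternatives its adjusted p ran from 0.0470 to 0.185. Tap1 and Tap2, the antigen peptide transporters, whose symbols lie outside the rule, did not pass in heart (0.01 ± 0.11 and 0.08 ± 0.10). Macrophage markers averaged 6.42 to 6.49 in mutant hearts and 6.16 to 6.48 in wild-type hearts, with 1 of 5 tested (Lyz2, 0.77 ± 0.16, adjusted p = 0.0274) past the test and 0 lower. All 5 differences were positive. The part of these markers in the Abcb9 values was not tested.

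The lowest heart values relative to wild type came from Abca8a and Abca8b, transporters of a gene cluster with Abca9, Abca6 and Abca5, of which Abca8b is known from cholesterol efflux. Abca8a read 8.93, 8.999, 8.75 and 8.86 in mutant hearts and 9.44, 9.30, 9.31 and 8.94 in wild-type hearts. Only wild-type heart 4 lay within the mutant range, and the change was -0.37 ± 0.12 (limma adjusted p = 0.149). Without wild-type heart 4 it was -0.47 with an adjusted p of 0.0432. Abca8b read 5.10, 5.24, 5.37 and 5.11 in mutant hearts and 5.56, 5.61, 5.53 and 5.55 in wild-type hearts, with no overlap and a change of -0.36 ± 0.09 (limma adjusted p = 0.0802, 0.0587 to 0.18 over all alternatives). Its second, dimmer probe gave -0.23 ± 0.15. Their neighbours gave both signs: Abca9 gave 0.22, 0.20 and -0.11 on 3 probes, Abca6 gave -0.14 and -0.06, and Abca5 gave 0.19. Abca5 was above background in 3 mutant and 0 wild-type hearts, so it entered the test only through the genotype in which it was higher, and its value supports nothing. These neighbouring paralogs are alike in sequence, and whether the probes tell them apart was not tested. Fibroblast markers averaged 8.04 to 8.24 in mutant hearts and 7.86 to 8.03 in wild-type hearts, with Col1a1 and Col3a1 past the test as higher, 0 lower, and 4 of 8 differences negative. The upstream sequences of the pair are shown because these neighbours had the 2 lowest heart changes of the family (GRCm38.p6, minus strand, chr11:110095938-110096187 for Abca8a and chr11:109995846-109996095 for Abca8b, 43.2% and 48.8% G and C).
Abca8a: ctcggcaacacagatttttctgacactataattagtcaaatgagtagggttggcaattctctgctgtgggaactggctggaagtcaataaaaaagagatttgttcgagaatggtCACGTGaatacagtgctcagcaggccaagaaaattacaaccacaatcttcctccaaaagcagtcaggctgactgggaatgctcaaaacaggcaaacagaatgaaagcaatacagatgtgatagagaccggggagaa
Abca8b: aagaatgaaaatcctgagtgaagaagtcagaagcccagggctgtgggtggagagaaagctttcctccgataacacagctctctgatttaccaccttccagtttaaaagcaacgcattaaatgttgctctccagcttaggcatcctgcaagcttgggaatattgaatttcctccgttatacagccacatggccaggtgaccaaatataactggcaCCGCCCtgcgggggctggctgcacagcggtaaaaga
Capitals mark the only matches to the motifs: CACGTG for Abca8a, present in 6.02% of windows, and CCGCCC, the reverse complement of GGGCGG, for Abca8b, present in 32.7%. In a global alignment the 2 windows had identical bases in 143 of 303 columns.

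**Figure D3:**
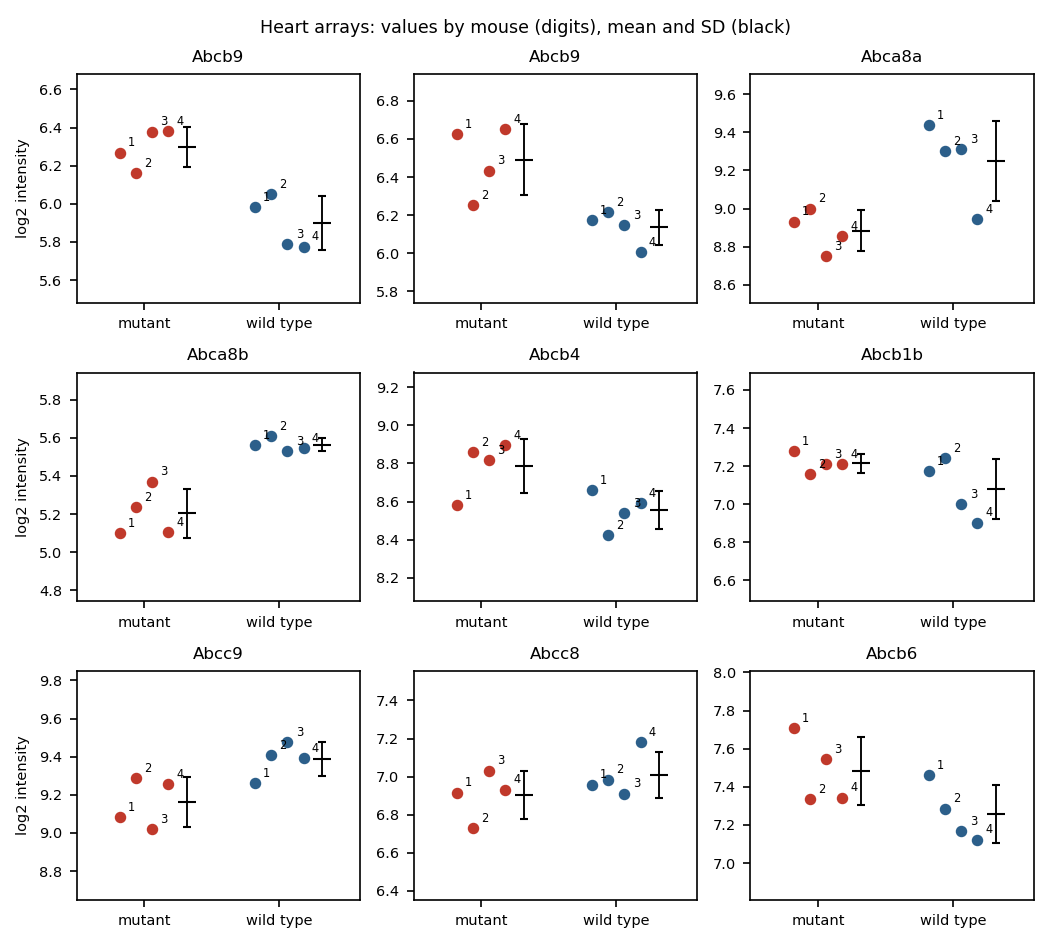
Log2 intensity of 9 heart probes (2 of them of Abcb9) in each mouse (digits number the mice), mutant left of wild type, with the group mean and SD in black. The genotypes separate for both probes of Abcb9 and for Abca8b, Abca8a separates except for wild-type heart 4, and Abcb1b overlaps.

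Abcc9, the sulfonylurea receptor subunit of the potassium channels of heart and vessels, had 3 probes in heart. The brightest read 9.08, 9.29, 9.02 and 9.26 in mutant hearts and 9.26, 9.41, 9.48 and 9.39 in wild-type hearts, with a change of -0.22 ± 0.10 (limma adjusted p = 0.302). The other probes gave 0.22 ± 0.23 and -0.07 ± 0.13, so the gene's probes differed in sign. Abcc8, the other sulfonylurea receptor, was above background on all heart arrays and no liver array, at 6.92, 6.73, 7.03 and 6.93 in mutant hearts and 6.96, 6.98, 6.91 and 7.18 in wild-type hearts (-0.11 ± 0.10). Of their listed channel partners, Kcnj8 gave -0.03 ± 0.10 in heart and Kcnj11 had no probe. Abca4, known as a retinoid transporter of the eye, was the other member on all heart arrays and no liver array, by 1 probe (4.84 ± 0.08 in mutants and 4.68 ± 0.14 in wild types).

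In the mitochondrial group the heart changes had both signs. Abcb6 read 7.71, 7.34, 7.55 and 7.34 in mutant hearts and 7.46, 7.29, 7.17 and 7.12 in wild-type hearts (0.22 ± 0.12, limma adjusted p = 0.386). Abcb10, which is needed for heme synthesis in red cell precursors, gave -0.17 ± 0.11 on its brighter probe (adjusted p = 0.473). Its dimmer probe, above background in 3 mutant and 2 wild-type hearts, gave 0.01 ± 0.14, so the gene's probes differed in sign. The 3 probes of Abcb8 gave -0.20, -0.13 and -0.16. Beside them, 2 of 7 tested genes of mitochondrial heme and iron-sulfur handling outside the family passed as lower in mutant hearts and 0 as higher. These were Alas2, which fell by 2.14 on the log2 scale, and Fech, which fell by 1.49 (limma adjusted p = 0.000779 and 0.00534), while Alas1 gave 0.21 (adjusted p = 0.387). Of 6 red cell markers tested 3 were past the test as lower and 0 as higher (Alas2, Hbb-bt and Slc4a1), and their mean level was 9.04 to 9.54 in mutant hearts and 9.53 to 10.7 in wild-type hearts. Their part in the Abcb10 values was not tested. The soluble members gave 1 probe of Abcf2 at 0.34 ± 0.11 (8.41, 8.67, 8.47 and 8.62 in mutant hearts, 8.13, 8.44, 8.06 and 8.20 in wild-type hearts, adjusted p = 0.155), while its 3 other probes gave -0.24, -0.13 and -0.04. Of 15 genes with several tested heart probes, 7 had probes of opposite sign. Other members named by smallest p were Abcg1, a sterol exporter (0.22 ± 0.14), Abca3 (0.16 ± 0.10, with -0.03 ± 0.12 on its dimmer probe), Abca12 (-0.34 ± 0.16), Abcg4 (-0.25 ± 0.13) and Abca17 (-0.16 ± 0.09). Abca12 and Abcg4 were each above background in 2 mutant and 4 wild-type hearts. Both entered the test only through the genotype in which they were higher. The bile exporters Abcg5 and Abcc2 were dim in heart. Abcg5 gave 0.02 ± 0.10, and Abcc2 gave -0.14 but was above background in 0 mutant and 3 wild-type hearts, so it entered the test only through the genotype in which it was higher.

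How large a difference on the offset scale could have been missed is given by the intervals of the tested members. The offset understates fold changes of dim probes, so a narrow interval of a dim probe does not limit its fold change in expression. In heart, a probe of Abca15 with means of 4.32 in mutants and 4.33 in wild types had an interval of 0.865- to 1.13-fold. Such dim probes are included in the counts that follow. The 95% interval lay within 1.5-fold in either direction for 35 of 46 liver probes (76.2% of all liver probes did) and for 53 of 59 heart probes (87.1% of all heart probes did). Within 2-fold lay 44 of 46 liver probes and 59 of 59 heart probes. The highest upper bound was 1.72-fold in liver (Abcc3) and 1.65-fold in heart (a probe of Abcc9). The lowest lower bounds were 0.342 and 0.467 times wild type in liver (both probes of Abca3) and 0.618 times in heart (Abca12). A failed test does not show that a member had the same level in both genotypes, and members that did not pass the background filter have no interval.

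**Figure D4:**
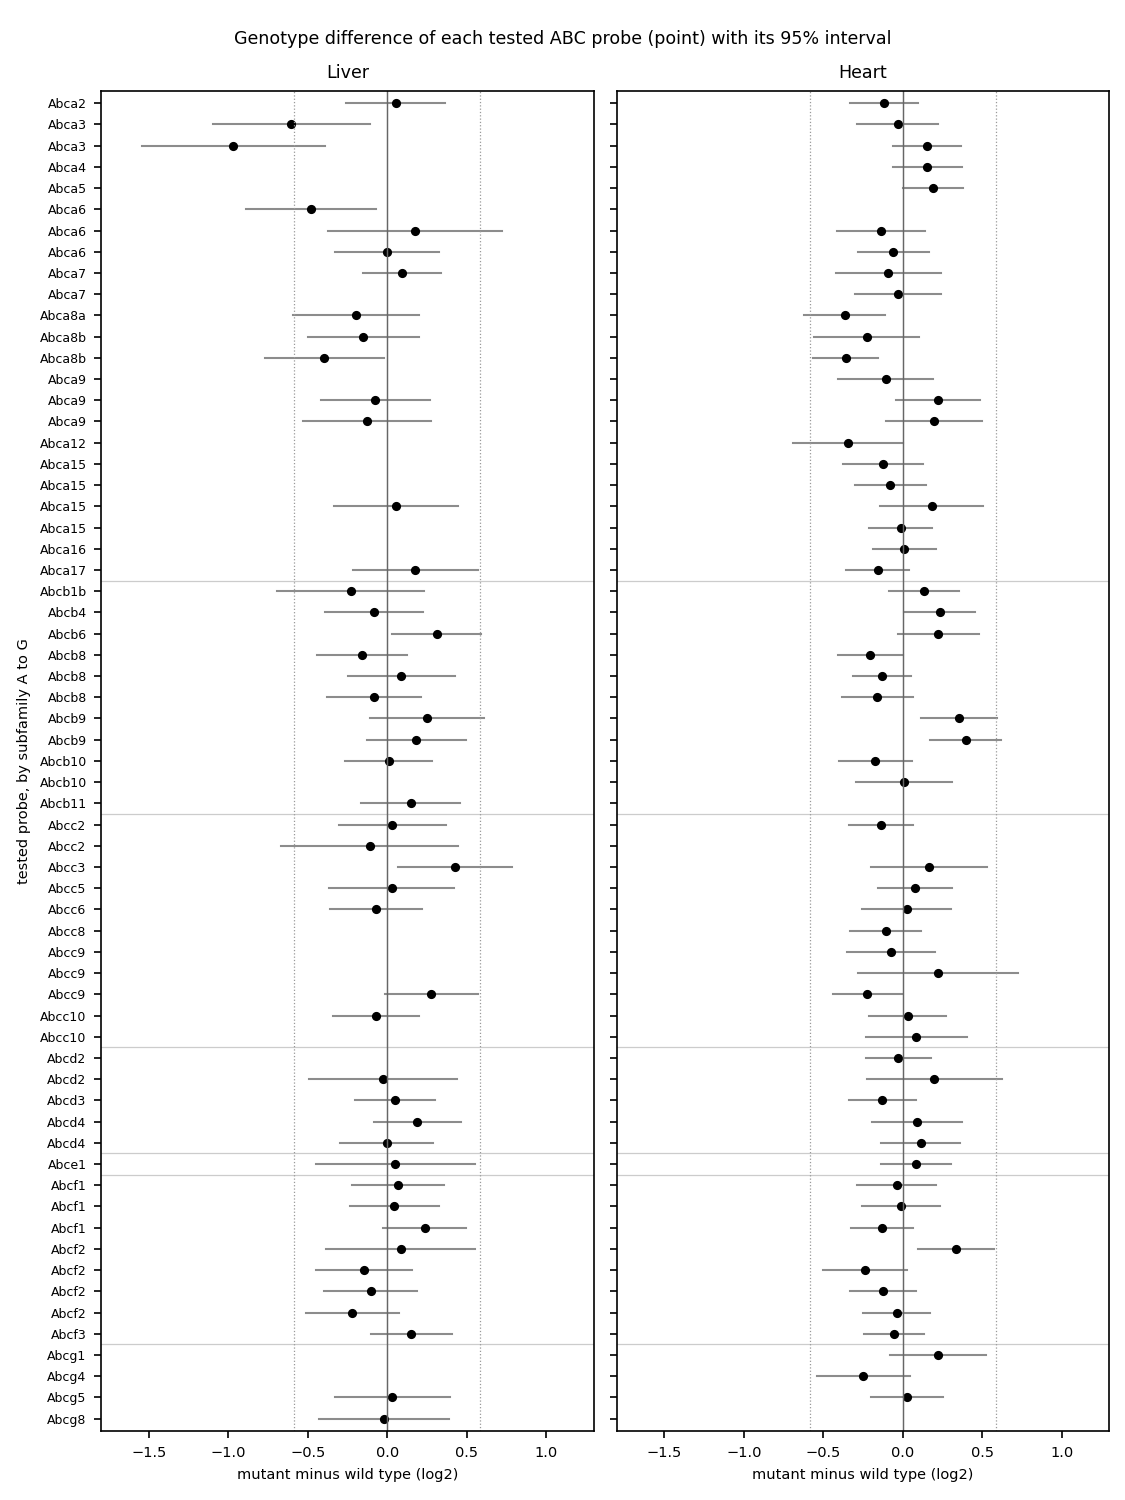
Log2 change (mutant minus wild type) of the tested members in liver and in heart, 1 row per tested probe, by subfamily, with 95% intervals as lines, a solid line at 0 and dotted lines at 1.5-fold. Abca3 in liver extends to the far left, and no member passed the adjusted threshold.

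The tissue difference subtracts the heart change from the liver change (a random block joins the tissues of a mouse) and was available for 42 member probes. No member passed (0 of 42, against 254 of 11549 probes in all, 2.20%), and 4 members (9.52%) had an unadjusted p under 0.05, 2 with a positive difference, beside 7.44% of all probes, and 2 with a negative one, beside 8.56%. These were both probes of Abca3 (-1.12 ± 0.29, limma adjusted p = 0.0546, and -0.57 ± 0.26, adjusted p = 0.296), Abcc9 (0.50 ± 0.15, adjusted p = 0.107) and Abcf1 (0.37 ± 0.13, adjusted p = 0.160). The other Abcf1 probes gave differences of 0.10 and 0.06. Without mutant liver 1 the brighter Abca3 probe passed (-1.54, adjusted p = 0.000123), and with an offset of 50 it also passed (-1.04, adjusted p = 0.0449). For the P-glycoprotein relatives the differences were -0.37 ± 0.24 for Abcb1b and -0.32 ± 0.16 for Abcb4. In liver, Abcb1b and the dimmer Abca3 probe entered the test only through the wild-type mice. Among the 42 probes the changes were positive in both tissues for 10, negative in both for 9 and opposite in sign for 23.

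Genes that regulate ABC transporters or share their routes were listed with earlier results of these data known. Of 13 regulators with a probe, 10 were tested in heart, with 1 past the limma test as higher and 0 lower, and 11 in liver, with 0 past it. The heart gene was Nr1h3, the oxysterol receptor LXR alpha that induces Abca1, Abcg1, Abcg5 and Abcg8. It rose by 0.69 ± 0.10 (8.56 ± 0.14 in mutant hearts and 7.88 ± 0.09 in wild-type hearts, SD, n = 4 each, adjusted p = 0.00506), while its dimmer probe gave 0.12. In liver its probes gave 0.24 and -0.49 (adjusted p = 0.459 and 0.215). Of its known targets among the members, Abcg1 in heart (0.22), Abcg5 (0.03) and Abcg8 (-0.02) in liver did not pass and Abca1 was not tested. Among carriers that take up or exchange bile acids and organic ions, Slc51a, a basolateral bile acid transporter subunit, rose in heart (5.30 ± 0.18 in mutants and 4.79 ± 0.12 in wild types, adjusted p = 0.0399), 1 of 7 tested, with 0 lower. In liver 0 of 9 such carriers passed, including Slco1b2, a hepatic uptake carrier (-0.48 ± 0.14, adjusted p = 0.233). Of the lipoprotein genes that receive ABC-exported lipid, 0 of 7 passed in either tissue. Hepatocyte markers averaged 9.98 to 10.03 in mutant livers and 10.02 to 10.10 in wild-type livers, with 0 of 6 tested past the test and all 6 differences negative.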

How the data were processed

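RNA of liver and heart was measured on 1-colour Illumina bead arrays. The deposited values are linear intensity per probe for 25697 probes. The submitters' processing notes name GenomeStudio 2011.1. Which normalization the authors applied is not stated in the sources used here. The 15 value columns of another, non-normalized intensity table match no sample label and were not used.

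Per array, the mode of the low values was taken as background, with the SD of the values under that mode (liver 109.71 to 109.73 with SD 2.64 to 2.65, heart -2.41 to -2.39 with SD 2.17 to 2.19). The normexp model with these parameters, an offset of 16 and log2 followed, with no further scaling. A probe was above background at a normal p under 0.05 and was tested when this held on at least 3 arrays of the tissue. Genotypes were compared within each tissue, as mutant minus wild type, with limma 3.58.1 in R 4.3.3 (lmFit, eBayes, Benjamini-Hochberg over all tested probes, threshold 0.05). The difference of the changes, liver minus heart, was fitted on all 15 arrays, blocked by mouse (duplicateCorrelation, estimated at 0.0118, with statmod 1.5.0). Mice were matched by the animal numbers in the labels. The within-tissue fits were tried on simulated independent normal values. The changes added there were larger than every member change seen within a tissue, so that trial does not bear on smaller changes.

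The members, the gene lists and the tests were chosen with earlier results of these data known. Names in the text are the members past the threshold, the up to 8 tested members with the smallest p in each tissue and direction, the full transporters of subfamily B, the bile exporters, members above background on all arrays of 1 tissue and none of the other, and up to 4 genes of smallest p per list. Abcd3, and the values of Abcb10 and Abca17 in liver and of Abca6 in heart, fall outside this rule and were named after they were seen. A list's mean level is the mean log2 value over its genes, by the brightest probe of each. The number of arrays limits the precision. Alternatives were the offset, a floor with no background correction, the background filter, quantile scaling, trend and robust priors, a joint fit, a replicate block and leaving out each array. In the tissue difference the other tissue of that mouse stayed in the fit. Promoter windows are from RefSeq, GRCm38.p6, where 36 of 46 member genes have an entry.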

Additional observations from a re-analysis of the deposited data

Results flagged for a closer look

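In 62 groups of 4 mice behind the values named above, 1 mouse stood apart from the others of its group in 3, where the gap to the nearest mouse divided by the group's range passed Dixon's critical value. Chance gives about 1 such group in 20. All 3 were dim probes within about 0.7 log2 units of the lowest possible value. For Abcd4 in liver, wild-type liver 1 read 4.39, against 4.68 to 4.72 in the other wild-type livers, with a gap ratio of 0.894. For Abca17 in heart, mutant heart 3 read 4.57, against 4.39 to 4.42 in the other mutant hearts, with a gap ratio of 0.837. For the brighter probe of Abcc2, dim in heart, mutant heart 2 read 4.30, against 4.18 to 4.20 in the other mutant hearts, with a gap ratio of 0.855.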

How the results depend on the processing

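The number of members past the adjusted threshold was 0 in liver, heart and the tissue difference, and it moved to 1 in 4 alternatives. These were the fit of all 15 arrays in liver (Abca3), the offset of 50 in heart (Abcb9) and in the difference (Abca3), and the floor of 16 with no background correction in the difference (Abcf1, 0.32, limma adjusted p = 0.0471). Under that floor the liver background stayed in the values, so the tissues were on differently compressed scales. Leaving out 1 array gave 0 to 1 members in each, with 1 without mutant liver 1 (Abca3, in liver and in the difference) and without wild-type heart 4 (Abca8a). Over all probes the liver count of 12 ran from 0 (no filter) and 5 (floor) to 32 (replicate block), 37 (trend and robust) and 151 (all arrays), and leaving out 1 mouse gave 2 to 53. The heart count of 367 ran from 130 (floor), 240 (replicate block) and 245 (no filter) to 568 (all arrays), 576 (offset of 50) and 604 (trend and robust), with 198 to 294 on leaving out 1 mouse. The difference count of 254 ran to 380 (floor), with 137 to 284 on leaving out 1 array. Of 336 pairs of a named value and a setting, 331 kept their direction and side, 4 became past the threshold and 1 changed sign, Abcg8 in liver (0.0022 with the replicate block). Under the floor 8 values gave none, since all arrays lay at it. Leaving out 1 array turned the sign in 14 of 362 pairs, all of small changes: in liver Abca8a (-0.42 to 0.012), Abca9 (-0.35 to 0.10), Abcb4 (-0.15 to 0.038), the dimmer Abcc2 probe (-0.30 to 0.12), Abcg5 (-0.12 to 0.23) and Abcg8 (-0.26 to 0.18), and in heart Abcg5 (-0.045 to 0.079). The causes were not tested.

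No pairing of mutant with wild-type mice by replicate number was seen. Same-numbered deviations from the group means correlated at -0.043 to 0.015 in liver and -0.106 to -0.051 in heart, and no mouse correlated best with its own number. This check could not exclude a pairing, since even the liver and heart of a single mouse had an estimated correlation of only 0.0118. With the replicate block, 0 members passed in either tissue. Signal over background limits the dim members, and those that failed the filter have no interval.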
